A study of Nothobranchius furzeri with 10 samples.

Results

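The genes described here varied between a signal and almost none from one killifish brain library to the next. They were chosen by their measured levels. Each had a level in CPM (the usual scaling of a count by its library total, here the column sum) below 0.2 in at least 2 of 10 libraries and above 2 in at least 2, whatever the treatment. The rule found 54 of the 26739 genes in the count table. A library above 2 CPM is called on for that gene, one below 0.2 CPM off, and the rest between. The on and off values of these genes made the choice, so they are given as a description.

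The libraries came from brain of male Nothobranchius furzeri, the turquoise killifish, a short-lived annual fish used to study vertebrate ageing. All fish belonged to the strain MZM-0410p and were 22 weeks old. The group given antagomiR-29a at 100 pmol held 5 libraries, and the group given a scrambled control held 5 libraries. No dose is labelled for the scrambled control, and no label read here tells the route or timing of delivery. The labels do not state that each library is a different fish, so a p-value reflects the spread among these libraries only, which may be technical.

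As background, MZM-0410 lines go back to wild fish caught in Mozambique. An antagomir is a modified oligonucleotide that pairs with a microRNA and blocks it. The miR-29 family is known in mammals for repressing collagen and other matrix transcripts. MicroRNAs usually tune the level of their targets in part rather than switching transcripts fully on or off.

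The tables give only assembly identifiers, which no file pairs with gene names, so members are called by identifier and their products are not stated. For the same reason the labelled tissue could not be set against brain markers. Library totals ran from 18489730 to 24486735 counts. At these depths 0.2 CPM corresponds to 3.7 to 4.9 counts and 2 CPM to 37 to 49 counts. The 2 chosen thresholds thus lie well apart in reads, though values can fall between them. Every off call rests on less than 4.9 counts, which cannot be told from a low level. A count of 0 allows up to 3 counts, or 0.123 to 0.162 CPM, which covers counting error only. In bulk tissue, fewer cells of a type and less RNA per cell cannot be told apart.

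Of the 540 library values of the 54 genes, 221 were on (40.9%), 148 were between (27.4%) and 171 were off (31.7%). Only 13 members had no library between the thresholds. Levels were low for many members: the highest library stood under 5 CPM in 27 of them and above 10 CPM in 14. The median of the highest values was 4.88 CPM and their range 2.36 to 75.2 CPM. In 23 members at least 1 library had no count at all. Among on libraries the highest and lowest lay less than 2-fold apart in 37 members and more than 4-fold apart in 11. The on threshold of 2 CPM by itself keeps this span small where the highest library was low. The spans therefore do not show an even on level.

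The largest number of members were on in few libraries. Just 2 libraries were on for 20 members and 3 libraries for 11. At the other end, 8 members were on in 6 libraries, 9 in 7 and 3 in 8. The implied gene length (from count, RPKM and library total) had a median of 1883 bases in the members. It was 2700 bases in all 18976 tested genes, which hold 41 of the members, and 2389 bases in all 22815 genes with a nonzero RPKM.

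**Figure D1:**
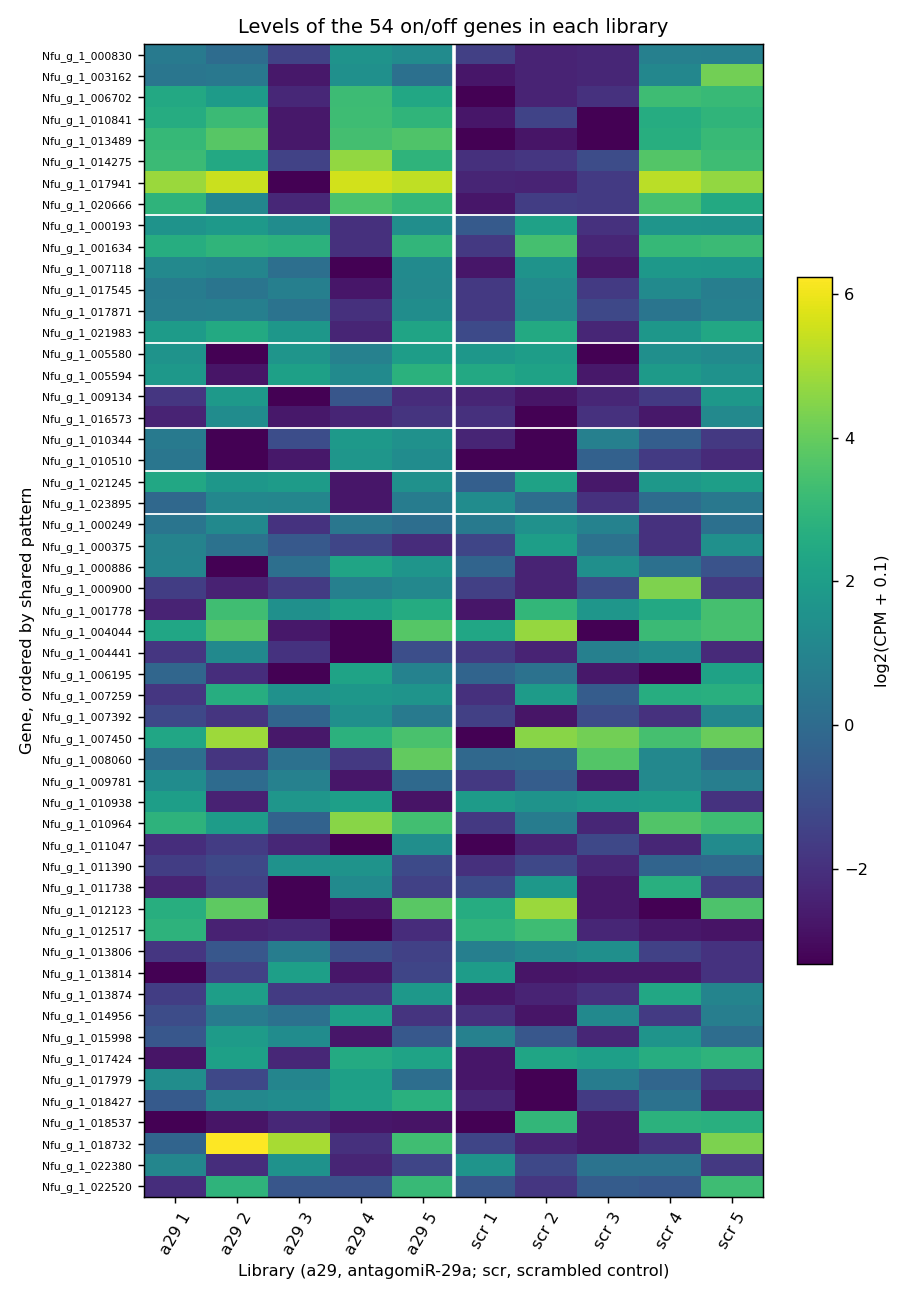
Levels of the 54 genes as log2(CPM + 0.1), 1 row per gene and 1 column per library, antagomiR-29a (a29) left of the white line and scrambled control (scr) right of it. The 8 genes at the top share 1 pattern of bright and dark libraries and the next 6 genes another, and neither change falls on the line between the groups.

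The number of members on differed widely between libraries of the same group. On members numbered 21, 27, 16, 25 and 33 in antagomiR-29a replicates 1 to 5, against 9, 22, 8, 30 and 30 in scrambled control replicates 1 to 5. Control replicates 1 and 3 had the fewest, and the ranges of the groups overlapped. Off members numbered 7 to 22 per antagomiR-29a library and 8 to 29 per control library. The 2 control libraries with few members on had 20168430 and 18995165 counts, while control replicate 4, with 30 on, had 19058989 counts. The deepest libraries, control replicate 5 (24486735 counts) and antagomiR-29a replicate 5 (23022558 counts), had 30 and 33 on. The shallowest, antagomiR-29a replicate 3 (18489730 counts), had 16 on. A part of depth in these numbers was not tested.

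**Figure D2:**
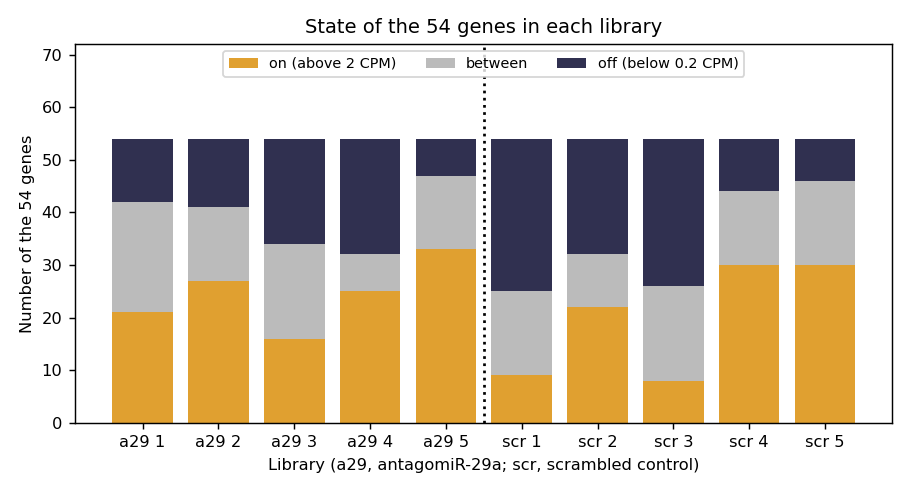
Number of the 54 genes on (above 2 CPM), between and off (below 0.2 CPM) in each library, antagomiR-29a left of the dotted line. The on part runs from 16 to 33 in antagomiR-29a libraries and from 8 to 30 in scrambled control libraries.

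In most members the on and off states did not follow the treatment. No member was on in all 5 libraries of one group and off in all 5 of the other. Both states occurred within each group for 41 of the 54 members. On libraries were found in both groups for 45 members, in the antagomiR-29a group alone for 6 and in the scrambled control group alone for 3. More antagomiR-29a than control libraries were on for 24 members, equal numbers for 17, and more control libraries for 13. Members that were high and low in the same libraries each enter this tally, so its entries are not independent. In 37 members the numbers differed by at most 1 library. The difference cannot be large where few libraries were on. Just 2 were on for 20 members and 3 for 11.

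Pairs of libraries shared states to a like extent within and across treatments. Over members with a clear state in both libraries, the median share in the same state was 54.5% for the 10 pairs of antagomiR-29a libraries. It was 53.0% for the 10 control pairs and 53.3% for the 25 mixed pairs. The most alike pair was mixed, antagomiR-29a replicate 5 and control replicate 4, with 26 of 31 members (83.9%) in the same state. The least alike pair came from a single group, control replicates 3 and 5, with 5 of 26 (19.2%).

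**Figure D3:**
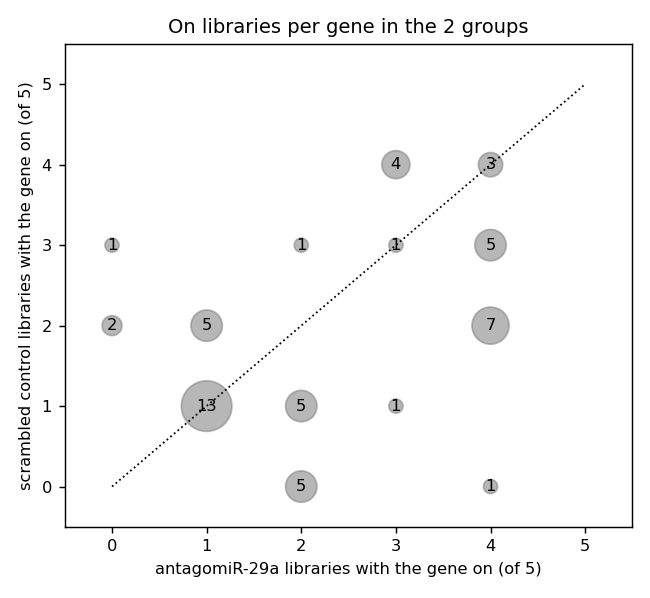
Number of scrambled control libraries (vertical axis) against antagomiR-29a libraries (horizontal axis) in which each gene was on; the figure in each circle is the number of genes and the dotted line marks equal numbers. The corners that would hold genes on in every library of 1 group and none of the other are empty, and the largest circle, of 13 genes, stands at 1 library in each group.

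The difference between the groups was also tested gene by gene, in a fit over all 18976 genes that passed a filter on low counts. The filter kept 41 members and dropped 13, which were on in 2 or 3 libraries. No member passed, where edgeR's quasi-likelihood test called 0.0474% of all tested genes (9 genes, Benjamini-Hochberg adjusted p under 0.05). An unadjusted p under 0.05 was found for 2 of the 41 members (4.88%), against 5.91% of all tested genes. The lowest adjusted p of a member was 0.409. The groups did not overlap in CPM for 0 of the 41 members, against 1.18% of all tested genes.

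Fitted differences of the members were larger and less certain than those of other genes, as their spread implies. Their median log2 fold change, antagomiR-29a over control, was 0.15, against 0.003 over all tested genes, with a median size of 0.41 against 0.08. Their median SE was 0.90, against 0.11 over all tested genes. With no count filter all 54 members entered the fit. Again 0 were called by edgeR, against 0.0394% of the 22815 genes in that fit, and the lowest adjusted p of a member was 0.584. An unadjusted p under 0.05 was found for 3 of the 54 members, against 5.37% of all genes. DESeq2 gave a p for 48 members and called 2 of them. This was a larger share than the 0.379% called of the 19245 genes with an adjusted p (73 genes).

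Among the members kept by the count filter, the lowest edgeR p was that of Nfu_g_1_018427. It had 0.558, 2.12, 2.43, 4.33 and 6.6 CPM in antagomiR-29a replicates 1 to 5, against 0.0992, 0, 0.211, 1.1 and 0.0817 CPM in control replicates 1 to 5. It was on in 4 antagomiR-29a libraries and in no control library, the widest difference in number of on libraries among the members, and antagomiR-29a replicate 1 lay below control replicate 4. The fitted log2 fold change, antagomiR-29a over control, came to 3.46 (SE 0.84, edgeR adjusted p = 0.409). DESeq2 called it, with a log2 fold change of 3.43 (adjusted p = 0.0193).

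The other member with an unadjusted p under 0.05 was Nfu_g_1_017979. Its values were 2.46, 0.316, 1.95, 4.18 and 0.999 CPM in antagomiR-29a libraries, against 0.0496, 0, 1.53, 0.787 and 0.163 CPM in control libraries. Its groups overlapped, and its log2 fold change of 2.01 had an SE of 0.87 (edgeR adjusted p = 0.829).

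On the other side, among the members kept by the count filter, the lowest edgeR p belonged to Nfu_g_1_013806 and Nfu_g_1_003162, and neither passed. Nfu_g_1_013806 had a log2 fold change of -1.24 (SE 0.75, edgeR adjusted p = 0.913). Nfu_g_1_003162 had one of -1.71 (SE 1.26, edgeR adjusted p = 0.937), and this turned to 1.15 without control replicate 5, which stood at 18.3 CPM where the other libraries lay between 0.0496 and 2.66 CPM.

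Nfu_g_1_018537, singled out after its values were seen, was 1 of the 3 members on in control libraries alone. It had 171, 134 and 159 counts (7.90, 7.03 and 6.49 CPM) in control replicates 2, 4 and 5, and no more than 2 counts in each of the 5 antagomiR-29a libraries and in control replicates 1 and 3. The count filter removed it. Without the filter it had the lowest edgeR adjusted p among members, 0.584. DESeq2 called it with an adjusted p of 0.0128 and a fitted log2 fold change of -6.47 (SE 1.55).

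Some members were high and low in the same libraries. With 1 cut at 0.632 CPM, the geometric mean of the thresholds, the 54 members fell into 38 patterns, of which 32 were held by 1 member. The most common pattern was shared by 8 members and the second by 6. Another 4 patterns were shared by 2 members each. Among the 13 members with no library between the thresholds, 12 patterns occurred and the most common held 2 members.

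The 8 genes of the most common pattern were above the cut in antagomiR-29a replicates 1, 2, 4 and 5 and control replicates 4 and 5. They were below it in antagomiR-29a replicate 3 and control replicates 1, 2 and 3. Across the 4 low libraries none of the 8 exceeded 7 counts. Their levels correlated across the 10 libraries at a Pearson r of 0.82 to 0.99 (median 0.95, on log2(CPM + 0.1)), a description of genes grouped for that likeness.

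The most abundant of the 8 was Nfu_g_1_017941. It stood at 28.0, 43.8, 0, 47.9 and 39.4 CPM in antagomiR-29a replicates 1 to 5, against 0.0992, 0.0924, 0.211, 37.6 and 25.9 CPM in control replicates 1 to 5. The low libraries held 0 to 4 counts and the high ones 602 to 973 counts. Each group therefore contained both states, with 1 low antagomiR-29a library and 3 low control libraries.

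Nfu_g_1_013489 gave the same picture at a lower level. Its antagomiR-29a libraries had 8.37, 13.3, 0.0541, 10.3 and 12.2 CPM, against 0, 0.0462, 0, 6.19 and 8.49 CPM in the control libraries. In Nfu_g_1_010841, the member most like it (r = 0.99), the antagomiR-29a libraries had 6.0, 9.07, 0.0541, 9.55 and 7.56 CPM, against 0.0496, 0.277, 0, 5.88 and 7.51 CPM in control libraries. The third of these genes, Nfu_g_1_006702, had 114, 82, 2, 191 and 121 counts in antagomiR-29a libraries, against 0, 2, 3, 180 and 211 counts in control libraries.

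The order among the on libraries was not the same for all 8, as a pair chosen after their values were seen shows. Nfu_g_1_014275 was highest in antagomiR-29a replicate 4 (25.6 CPM) and lowest among on libraries in antagomiR-29a replicate 2 (5.37 CPM), where Nfu_g_1_013489 was highest. Nfu_g_1_020666 was likewise low in antagomiR-29a replicate 2, with 2.03 CPM, against 11.4 CPM in antagomiR-29a replicate 4. The 8 genes were spread over the table, from row 130 to row 21485. The closest 2, Nfu_g_1_013489 and Nfu_g_1_017941, lay 39 rows apart, where the median distance between successive members was 325 rows.

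A single member showed the reverse of all 8. Nfu_g_1_013806 had 0.186, 0.496, 1.57, 0.394 and 0.261 CPM in antagomiR-29a replicates 1 to 5, against 1.64, 2.08, 2.63, 0.262 and 0.163 CPM in control replicates 1 to 5. It was above the cut in the 4 libraries where the 8 genes were low, and below it in the other 6. Its r with the 8 genes ran from -0.94 to -0.88. Its level was low in every library, from 4 to 50 counts.

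**Figure D4:**
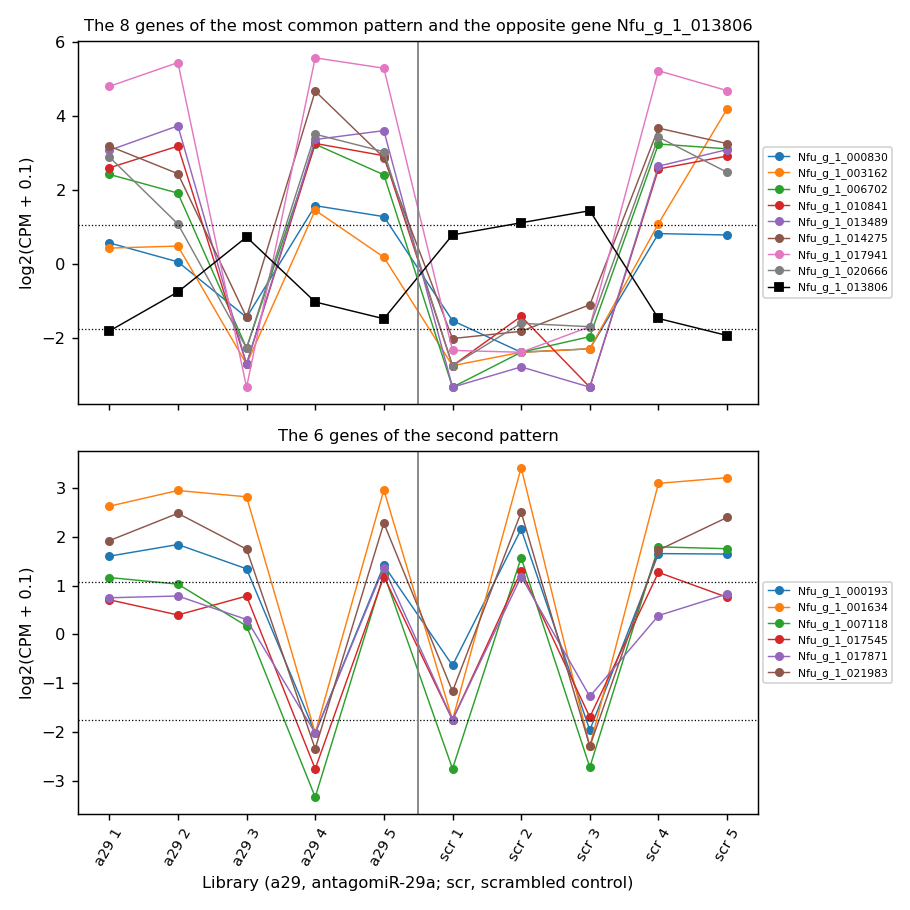
log2(CPM + 0.1) of the 8 genes of the most common pattern with the opposite gene (black squares, upper panel) and of the 6 genes of the second pattern (lower panel), antagomiR-29a libraries left of the grey line; dotted lines mark 0.2 and 2 CPM and lines join the values of 1 gene. The 8 genes are low in antagomiR-29a replicate 3 and control replicates 1 to 3, and the 6 genes in antagomiR-29a replicate 4 and control replicates 1 and 3.

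The second pattern joined 6 genes that were low in antagomiR-29a replicate 4 and control replicates 1 and 3. The clearest was Nfu_g_1_001634, with 6.05, 7.58, 6.92, 0.148 and 7.64 CPM in antagomiR-29a libraries, against 0.198, 10.5, 0.105, 8.39 and 9.11 CPM in control libraries. Its 7 on libraries lay within 1.73-fold, and its low libraries held 2 to 4 counts. The 6 genes correlated at 0.93 to 0.99 and lay at least 1012 rows apart. Nfu_g_1_001634 averaged 5.67 ± 3.15 CPM in antagomiR-29a libraries and 5.66 ± 5.08 CPM in control libraries (SD, n = 5 each).

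The other genes of the second pattern were weaker. Nfu_g_1_017545 is one of the members just inside the off threshold, with 1.53, 1.22, 1.62, 0.0492 and 2.17 CPM in antagomiR-29a libraries, against 0.198, 2.36, 0.211, 2.31 and 1.59 CPM in control libraries. With 4 counts each, control replicate 1 was off and control replicate 3 was between. Here the library totals, 20168430 and 18995165 counts, set the 2 states apart. At such a level 1 read would also change the state.

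Both patterns reached beyond the members. Nfu_g_1_022436, not a member, reached 83.3 to 208 CPM in the 6 libraries where the 8 genes were above the cut. In the other 4 it had 0.325 CPM (antagomiR-29a replicate 3) and 0.297, 1.66 and 0.474 CPM (control replicates 1 to 3), all between the thresholds. Nfu_g_1_013166 stood at 12.3 to 15.2 CPM in the 7 libraries where Nfu_g_1_001634 was on and at 0.263 to 0.344 CPM in the other 3, with r = 0.995 to that gene. Among 18935 tested non-members, 8 had an r above 0.95 with Nfu_g_1_017941 and 20 with Nfu_g_1_001634. Such non-members were not particular to these 2 patterns. They were found for 37 members, and Nfu_g_1_015998, whose pattern no other member shared, had 14. Nor does such an r require a change of state. Nfu_g_1_010667 had an r of 0.98 with the member Nfu_g_1_023895 and ran only from 102 to 136 CPM. All these non-members were picked for likeness in the same 10 libraries, so the values are a description.

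Neighbours in the table showed 2 pairs of members in successive rows, each pair with 1 shared pattern. Nfu_g_1_005594 and Nfu_g_1_005580 were off in antagomiR-29a replicate 2 and control replicate 3, with at most 1 count, and above 1.7 CPM in the other 8 libraries (r = 0.995). Nfu_g_1_005594 had 3.35, 0.0451, 4.16, 2.26 and 6.78 CPM in antagomiR-29a libraries, against 5.35, 4.44, 0.0526, 3.57 and 2.86 CPM in control libraries. The second pair, Nfu_g_1_010510 and Nfu_g_1_010344, was above the cut in antagomiR-29a replicates 1, 4 and 5 and control replicate 3 (r = 0.95).

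For Nfu_g_1_010344 the values were 1.4, 0, 0.379, 3.40 and 2.74 CPM in antagomiR-29a libraries, against 0.0992, 0, 1.68, 0.630 and 0.204 CPM in control libraries. No source used here gives the counting options, so reads shared between overlapping or near-identical neighbours cannot be told apart. Whether row order follows the genome was not tested. The other 4 successive members within 25 rows of each other had an r between -0.80 and 0.53.

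In some members the on libraries covered a wide range. Nfu_g_1_004044 had 4.98, 13.4, 0.0541, 0 and 12.99 CPM in antagomiR-29a replicates 1 to 5, against 4.96, 26.4, 0, 9.08 and 10.8 CPM in control replicates 1 to 5. Nfu_g_1_012123, chosen for this comparison after its values were seen, had 6.33, 14.3, 0, 0.0492 and 13.7 CPM in antagomiR-29a libraries, against 5.95, 28.0, 0.0526, 0 and 11.8 CPM in control libraries. In both genes control replicate 2 was highest, and antagomiR-29a replicate 1 and control replicate 1 were the lowest of the on libraries.

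The pair differed in control replicate 4, where Nfu_g_1_004044 had 173 counts and Nfu_g_1_012123 had none. They correlated at 0.80 across the 10 libraries. Both states of each gene occurred in both groups.

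At the cut of 0.632 CPM, 47 of the 1431 member pairs lay on the same side in all 10 libraries. Exactly opposite patterns were found for 10 pairs, of which 8 were those of Nfu_g_1_013806. The remaining 2 pairs were named after their values were seen. Nfu_g_1_010938 was off in antagomiR-29a replicates 2 and 5 and in control replicate 5, with 2, 1 and 4 counts, and had 58 to 85 counts elsewhere. Nfu_g_1_022520 was on in just these 3 libraries, at 7.40 and 8.56 CPM in the antagomiR-29a libraries and 9.43 CPM in the control library, and at 0.579 CPM or less elsewhere (r = -0.96).

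Outside the members, Nfu_g_1_013189 moved on a smaller scale with Nfu_g_1_010938 and against Nfu_g_1_022520. It was picked from 18935 tested non-members as the one most like Nfu_g_1_010938 (r = 0.97), so its values are a description. It stood at 5.01 and 5.13 CPM in antagomiR-29a replicates 2 and 5 and 4.53 CPM in control replicate 5. In the other 7 libraries it lay between 9.41 and 10.6 CPM. The implied lengths were 8946 bases for Nfu_g_1_010938, 7517 bases for Nfu_g_1_022520 and 390 bases for Nfu_g_1_013189.

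The last opposite pair was Nfu_g_1_007450 and Nfu_g_1_013814. Nfu_g_1_007450 had 4.88, 28.2, 0.0541, 6.89 and 11.2 CPM in antagomiR-29a libraries, against 0, 23.3, 18.3, 10.7 and 16.6 CPM in control libraries. Nfu_g_1_013814 was on only where it was off, with 75 counts in antagomiR-29a replicate 3 and 77 counts in control replicate 1, and 0 to 7 counts in the other libraries (r = -0.87). In the same 2 libraries the non-member Nfu_g_1_005140 had 62.7 CPM (antagomiR-29a) and 76.3 CPM (control), and 29.6 to 37.1 CPM in the other 8. This gene was picked as the tested non-member most opposed to Nfu_g_1_007450 (r = -0.98), so its values too are a description.

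**Figure D5:**
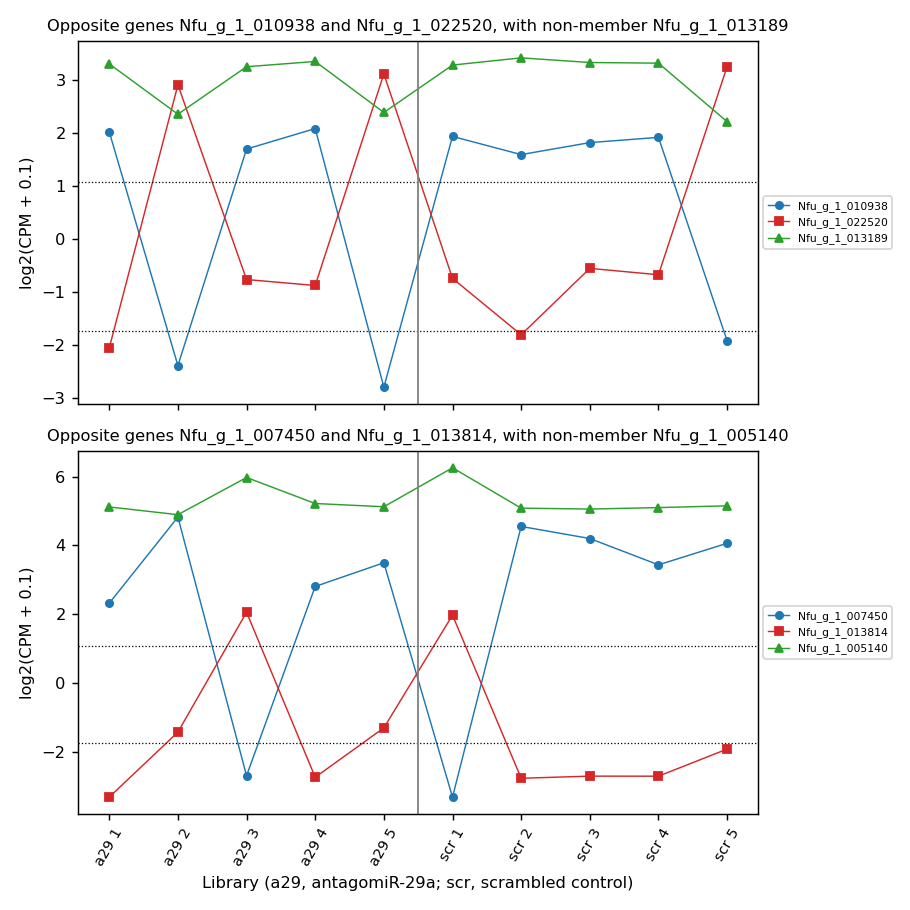
log2(CPM + 0.1) of 2 opposite pairs of members (circles and squares) with 1 non-member each (triangles), antagomiR-29a libraries left of the grey line; dotted lines mark 0.2 and 2 CPM and lines join the values of 1 gene. Nfu_g_1_022520 is high where Nfu_g_1_010938 is low, Nfu_g_1_013814 where Nfu_g_1_007450 is low, and each change of state occurs in both groups.

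Other members had a pattern of their own. The highest level of any member was that of Nfu_g_1_018732, with 0.744, 75.2, 31.4, 0.148 and 9.86 CPM in antagomiR-29a libraries, against 0.297, 0.0924, 0.0526, 0.157 and 20.1 CPM in control libraries. Its on libraries spanned 7.62-fold, and control replicate 5 stood alone in its group. Nfu_g_1_012517, named after its values were seen, was on at 7.07 CPM in antagomiR-29a replicate 1 and at 7.39 and 9.47 CPM in control replicates 1 and 2. Its other 7 libraries held 0 to 3 counts.

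Nfu_g_1_001778 was on in 8 libraries. It had 2 counts in antagomiR-29a replicate 1 and 1 count in control replicate 1, and the other libraries ran from 2.65 to 9.79 CPM in the antagomiR-29a group and from 3.11 to 10.6 CPM in the control group. So the off state was again present once in each group.

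The thresholds divide a continuous range. Just inside the on threshold were Nfu_g_1_023895 and Nfu_g_1_007392, whose second-highest libraries had 2.03 and 2.04 CPM. Just outside were Nfu_g_1_012595 and Nfu_g_1_021196, both with 1.94 CPM. At the off threshold, the second-lowest library had 0.198 CPM in Nfu_g_1_017545 and Nfu_g_1_010964, against 0.210 CPM in Nfu_g_1_017766 and Nfu_g_1_001501, which were left out.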

How the data were processed

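RNA sequencing of 10 brain libraries, made with the TruSeq RNA kit v2 per the labels' protocols, was analysed from 2 tables. The submitters' processing notes name featureCounts 1.4.6-p4, STAR 2.4.1d and bcl2fastq 1.8.4. They name no build, annotation or counting option. The deposited counts are whole reads per gene, not normalised. The RPKM deposited by the authors were used only for gene lengths: over 4159 well-covered genes, count, RPKM and total gave 1 length per gene (median CV 0.0011%) when the library totals were taken in turn down the table, and 12.1% with each library's own total. Columns were matched to samples by title, and groups taken from the perturbation label.

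CPM used column totals. Group differences were tested with edgeR 4.0.16 in R 4.3.3 (filterByExpr, minimum count 10 and total 15; TMM; robust quasi-likelihood; group as the only term; Benjamini-Hochberg over all tested genes, limit 0.05). The SE is the log2 fold change over the square root of F. The code was checked on simulated data. DESeq2 1.42.0, RLE scaling, no filter, no robust estimation, a title-number block, other thresholds and leaving out each library were alternatives. Named members followed a fixed rule: up to 2 members in each of the first 4 patterns with no library between (1 pattern held 2 members, and the others held 1 each and were taken by lowest identifier), the 2 lowest p per direction, the 2 highest levels, the 2 on each side of each threshold, members in successive rows and the 2 most like the first gene. Others are said to be chosen after their values were seen. The rule and the genes were chosen with earlier results of these data known. Within groups, library pairs differed by more than sampling noise (chi-square per degree of freedom 11.9 to 28.9 over 20 pairs). A RefSeq table of 38438 genes matched 0 identifiers, so lists of marker genes were not used. Figures were drawn with matplotlib 3.10.9.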

Additional observations from a re-analysis of the deposited data

Results flagged for a closer look

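Within the groups of 5 libraries, 27 named genes and 3 library measures were examined for a single library set far apart from the rest, on log2(CPM + 0.1) for genes, and 17 of 60 groups gave a flag. Chance flags about 1 in 20 groups. Genes picked for on and off libraries show such gaps wherever 1 library of a group holds the rarer state, so the flags add no evidence beyond the choice. They concern 15 genes.

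In the antagomiR-29a group, replicate 3 lay far below the others for Nfu_g_1_013489 (0.0541 CPM), Nfu_g_1_006702 (0.108 CPM), Nfu_g_1_017941 (0 CPM) and Nfu_g_1_010841 (0.0541 CPM). Replicate 4 did so for Nfu_g_1_001634 (0.148 CPM) and Nfu_g_1_017545 (0.0492 CPM), and replicate 2 for Nfu_g_1_005594 (0.0451 CPM) and Nfu_g_1_005580 (0 CPM). Replicate 1 lay far above the others for Nfu_g_1_012517 (7.07 CPM).

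In the scrambled control group, replicate 1 lay far below the others for Nfu_g_1_001778 (0.0496 CPM) and Nfu_g_1_007450 (0 CPM) and far above them for Nfu_g_1_013814 (3.82 CPM). Replicate 3 was far below for Nfu_g_1_005594 (0.0526 CPM) and Nfu_g_1_005580 (0 CPM). Replicate 5 was far above for Nfu_g_1_018732 (20.1 CPM) and Nfu_g_1_022520 (9.43 CPM) and far below for Nfu_g_1_010938 (0.163 CPM).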

How the results depend on the processing

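The number of on/off genes depended on the thresholds and little on scaling. It stayed at 54, with the same genes, on TMM or RLE library sizes. It was 33 with off below 0.1 CPM, 123 with off below 0.5 CPM, 9 with off as a count of 0, 127 with on above 1 CPM, 21 with on above 5 CPM and 17 with at least 3 libraries off and 3 on. Leaving out 1 library gave 37 to 49 genes, which can only be among the 54, since dropping a library cannot add a member. The most common pattern held 8 members with 1 cut, the geometric mean of the thresholds,, against 2 among members with no library between. Over all genes DESeq2 called 73 genes against 9 by edgeR, leaving out 1 library gave 0 to 8, and the title number as a replicate block gave 0 (707 genes at an unadjusted p under 0.05). The title number was not taken as a pairing, since it is not stated to pair samples. For the 4 numbers found in both groups, deviations of log CPM from the group means correlated at 0.01, -0.31, -0.09 and -0.09. Libraries with unlike numbers were not compared in this way, so these values do not settle the pairing. Members called numbered 2 with DESeq2, which gave no p for 6 members, and 0 in the other 14 alternatives, where 1 to 4 members had an unadjusted p under 0.05 and the lowest adjusted p was 0.0931. The log2 fold change of Nfu_g_1_018427 ran from 3.01 to 5.00 (adjusted p 0.0193 to 1.0), under the limit with DESeq2 alone. That of Nfu_g_1_003162 ran from -2.17 to 1.15 when 1 library was left out. Of 22 named members tested, 12 changed their fitted sign in at least 1 of 15 alternatives; the cause was not tested. At this depth, a state set by fewer than 5 counts cannot be told from a low level.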

Other observations

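A further 2 members shared a pattern without lying near each other in the table. Nfu_g_1_016573 and Nfu_g_1_009134 were on only in antagomiR-29a replicate 2 and control replicate 5. Nfu_g_1_016573 had 2.44 CPM in the antagomiR-29a library and 2.16 CPM in the control library, and Nfu_g_1_009134 had 3.52 CPM and 3.35 CPM in the same libraries. In the other 8 libraries neither exceeded 0.492 CPM. The genes lay 14335 rows apart and correlated at 0.92, and both were named after their values were seen.

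Members 22 rows apart were opposed in part, another pair named after its values were seen. Nfu_g_1_011047 was on in antagomiR-29a replicate 5 and control replicate 5, with 58 counts in each, where its neighbour Nfu_g_1_010938 was off with 1 and 4 counts (r = -0.80). In antagomiR-29a replicate 2, where Nfu_g_1_010938 was also off, Nfu_g_1_011047 had 5 counts.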
